A study of Homo sapiens with 4 samples.

Results

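The 32 genes described here encode the enzymes and regulators of cholesterol and fatty acid synthesis. They were selected by gene symbol, not by a cutoff on measured values, from the 23228 genes in the count files, with earlier results of these data known. RNA-seq compared 2 vehicle samples with 2 samples given 5 µM LY500307, an agonist of estrogen receptor β, for 24 h, in SKOV3-ALDH+ ovarian cancer stem cells (OCSCs). SKOV3 is a long-established line of human ovarian cancer cells, and ALDH+ cells are those sorted for high aldehyde dehydrogenase activity with the ALDEFLUOR reagent. All samples came from this line and this sort, and both groups were grown as spheroids with B27 supplement, EGF, bFGF, hydrocortisone and insulin, with no genetic change named in the labels. The sources do not settle whether the replicates were separate cultures, so p-values measure the spread between these samples, which may be technical.

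Cells make cholesterol from acetyl-CoA through the mevalonate pathway, which runs to farnesyl diphosphate and then, through squalene and lanosterol, to cholesterol. Fatty acids are built from the same acetyl-CoA by carboxylation, chain synthesis, elongation and desaturation. Both pathways are under transcriptional control by the SREBP factors, which the protein SCAP escorts from the endoplasmic reticulum to the Golgi when sterols are low and which INSIG proteins hold back when sterols are high. Target genes of the SREBPs therefore tend to rise when a cell lacks sterols and to fall when sterols are plentiful.

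Between 28841701 and 34943882 reads were counted on genes per sample, and 14473 genes passed the filter on low counts, including all 32 members. The epithelial marker EPCAM had 6213 to 8327 reads and KRT18 had 668 to 1030, while KRT8 had 9 to 33 reads and KRT19 had 0 to 2. The aldehyde dehydrogenases ALDH1A1 and ALDH1A3 had 134 to 185 and 8 to 16 reads. ESR2, which encodes the receptor for LY500307, had 7 to 12 reads per sample, and ESR1 had 0 reads in each sample, which allows up to 3 reads. Summed over 6 markers of immune, endothelial and liver cells, there were 6 and 13 reads in the vehicle samples and 18 in each LY500307 sample. The LY500307 samples differed from each other more than the vehicle samples did, with a chi-square per degree of freedom over genes of 42.5 against 5.16, and LY500307 replicate 2 lay farther than replicate 1 from the vehicle mean for 10086 of the 14473 tested genes.

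The 32 genes differed little between LY500307 and vehicle, and in no common direction. The log2 fold changes ran from -0.36 for ACSL3 to 0.40 for TM7SF2, with 16 positive and 16 negative. Their median was 0.01, beside -0.00 over all tested genes, and the median size of a change was 0.17 against 0.18. Reads of the 32 genes made up 0.914% of gene counts in both vehicle samples, 0.900% in LY500307 replicate 1 and 0.956% in replicate 2. In bulk RNA, fewer cells expressing a gene and less RNA per cell cannot be told apart.

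None of the 32 genes met the criteria used in the study for differential expression, an unadjusted p below 0.05 with an absolute log2 fold change above 0.5. Of all tested genes, 2.76% met them as higher and 1.86% as lower. At an unadjusted p below 0.05 alone, SCAP and TM7SF2 were higher, against 6.09% of all tested genes, and SC5DL and ACSL3 were lower, against 5.5%. No gene in the whole table, and so no member, had an adjusted p below 0.05 in edgeR's quasi-likelihood test (0.0% of 14473 genes, 1678 of them with an unadjusted p below 0.05). With DESeq2, 20 genes of the table had an adjusted p below 0.05, 0 of them members. The members' adjusted p-values ran from 0.428 to 0.979. A fit that leaves 1 sample in a group takes its spread from the other group alone, so such fits are read here by log2 fold change. Without LY500307 replicate 1, TM7SF2 gave 0.60, ACSL3 -0.61 and FDPS -0.15. Without LY500307 replicate 2 they gave 0.16, -0.14 and -0.20. The values without vehicle replicate 1 were 0.46, -0.36 and -0.18, and without vehicle replicate 2 they were 0.34, -0.36 and -0.17.

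The 95% intervals state how large a change these data leave room for. For 25 of the 32 genes the whole interval lay within 0.5 on either side of 0 on the log2 scale, as it did for 43.1% of all tested genes. The 7 genes whose interval passed that limit were SCAP, PMVK and TM7SF2 on the positive side and HSD17B7, SC5DL, ELOVL6 and ACSL3 on the negative side. The widest reach was 0.75 for TM7SF2 and -0.72 for ACSL3. Standard errors ranged from 0.094 to 0.16, against 0.093 to 1.29 over all tested genes. The share of intervals within 0.5 was thus not compared at matched precision.

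**Figure D1:**
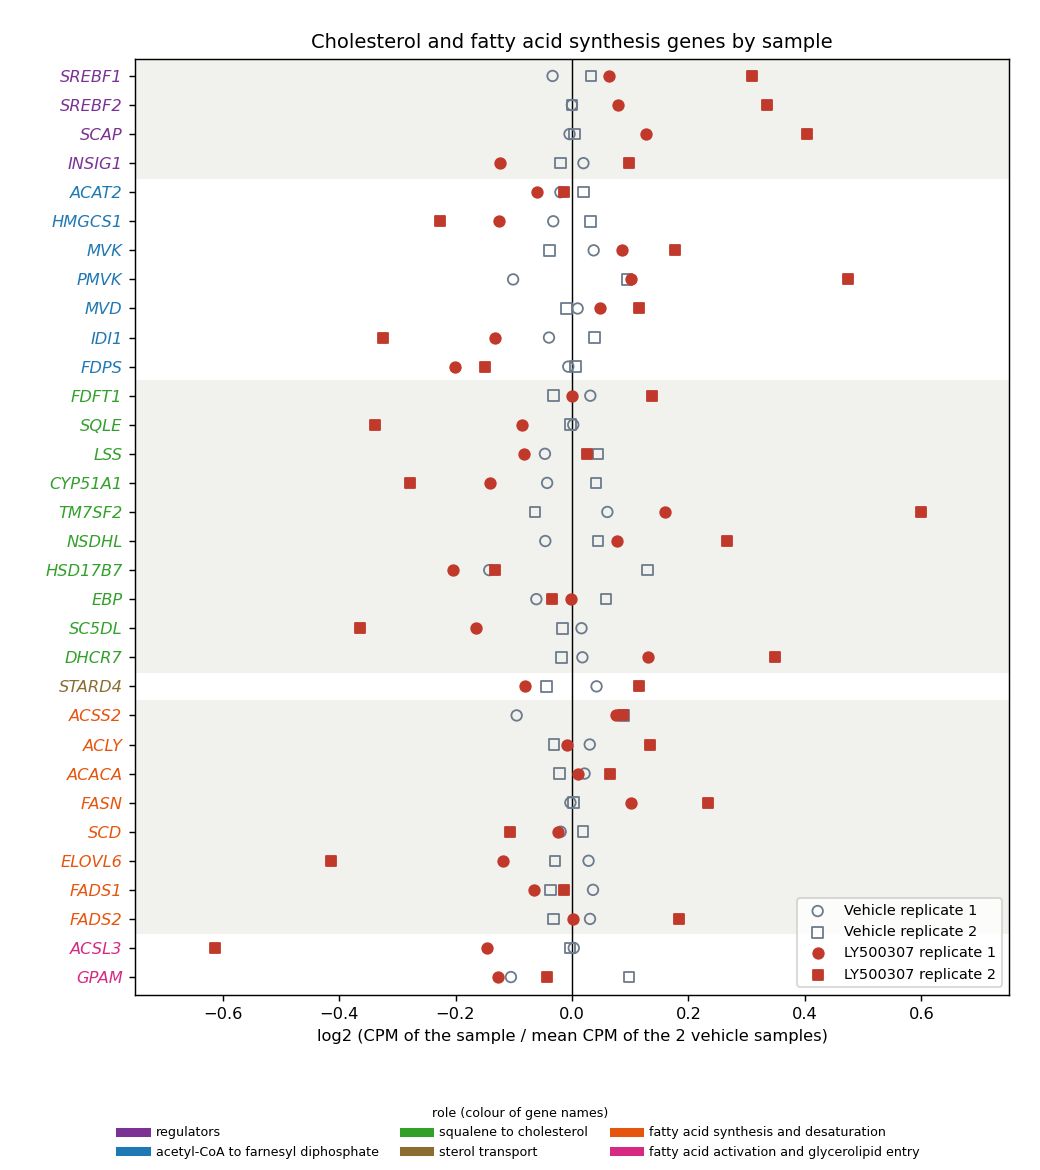
Level of each gene in each sample as log2 of its CPM over the mean CPM of the 2 vehicle samples, with genes ordered and coloured by role, open grey symbols for vehicle and filled red symbols for LY500307. LY500307 replicate 2 (filled squares) lies farther from 0 than LY500307 replicate 1 (filled circles) in 25 of 32 genes, out to 0.60 for TM7SF2 and -0.61 for ACSL3.

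The regulators had the highest median log2 fold change of the groups of more than 2 genes, 0.20, and both LY500307 samples lay above both vehicle samples for 3 of the 4. Across all 32 genes such a clear ordering held for 10 genes upwards, against 24.2% of all tested genes, and for 9 genes downwards, against 24.4%. The exonic GC content of the regulators was 59.1% for SCAP, 57.0% for SREBF2, 61.6% for SREBF1 and 44.6% for INSIG1. After correction for exonic GC content, the log2 fold changes were 0.19 for SCAP, 0.14 for SREBF2, 0.09 for SREBF1 and 0.05 for INSIG1. SCAP, the escort of the SREBPs, had 3273 and 3122 reads with vehicle and 4151 and 4682 with LY500307. As CPM, counts scaled to a common library total with TMM factors, this was 109 and 110 against 120 and 145. The log2 fold change of SCAP was 0.27 ± 0.12 (SE; edgeR's quasi-likelihood test, unadjusted p = 0.049, adjusted p = 0.428), and it was 0.13 without LY500307 replicate 2 and 0.41 without replicate 1.

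SREBF2 encodes SREBP-2, the factor most tied to the sterol genes, and had 9700 and 9200 reads with vehicle and 11866 and 13200 with LY500307. Its CPM values were 324 and 324 against 342 and 408, a log2 fold change of 0.21 ± 0.12 (SE). SREBF1, whose products are most tied to the fatty acid genes, had 3795 and 3767 reads with vehicle and 4698 and 5191 with LY500307. Its CPM values were 127 and 133 against 135 and 161, a log2 fold change of 0.19 ± 0.11 (SE). Neither gene had an unadjusted p below 0.05 in edgeR, and the adjusted p was 0.474 for SREBF2 and 0.493 for SREBF1. Without LY500307 replicate 2 the log2 fold changes were 0.08 for SREBF2 and 0.07 for SREBF1. Without LY500307 replicate 1 they were 0.34 and 0.31. The ratio of SREBF2 to SREBF1 per transcript length was 2.39 and 2.29 with vehicle and 2.36 and 2.38 with LY500307, so the 2 genes kept their proportion within the vehicle range. On this table SREBF1 shares 6.75% of its exonic bases with RAI1 on the other strand.

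INSIG1 encodes a sterol-sensing anchor of SCAP and is itself a target of the SREBPs. It had 5768 and 5322 reads with vehicle and 6045 and 6570 with LY500307, or 192 and 187 CPM against 174 and 203 CPM. The LY500307 samples lay on opposite sides of the vehicle samples, and the log2 fold change of -0.01 carried a 95% interval from -0.26 to 0.25.

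From acetyl-CoA to farnesyl diphosphate the 7 enzymes had a median log2 fold change of -0.04, with 3 positive and 4 negative and none below an unadjusted p of 0.05. HMGCS1, which makes HMG-CoA, had CPM values of 716 and 748 with vehicle and 671 and 625 with LY500307, a log2 fold change of -0.18 ± 0.11 (SE). IDI1, the isopentenyl diphosphate isomerase, gave -0.23 ± 0.11. FDPS, the farnesyl diphosphate synthase, had CPM values of 382 and 386 against 334 and 346 and a log2 fold change of -0.17 ± 0.10. For these 3 genes the LY500307 values all lay under the vehicle values.

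The kinases and the decarboxylase between mevalonate and isopentenyl diphosphate lay on the other side before correction for exonic GC content. The log2 fold changes were 0.13 ± 0.12 (SE) for MVK, 0.30 ± 0.16 for PMVK and 0.08 ± 0.10 for MVD, with both LY500307 samples above both vehicle samples in each. PMVK had CPM values of 25.2 and 28.9 with vehicle and 37.6 in LY500307 replicate 2, and LY500307 replicate 1 lay just above the higher vehicle sample. Exonic GC content was 56.1% for MVK, 59.0% for PMVK and 63.0% for MVD. It was 40.3% for HMGCS1, 43.1% for IDI1 and 55.0% for FDPS. After GC correction MVK gave 0.06, PMVK 0.22 and MVD -0.03, while HMGCS1 gave -0.07, IDI1 -0.15 and FDPS -0.24. Whether the contrast between these steps was separate from GC content was not tested. ACAT2, the cytosolic thiolase that opens the pathway, gave -0.04 ± 0.09 with overlapping groups, and 17.2% of its exonic bases are shared with TCP1 on the other strand.

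Of the 10 enzymes from squalene synthesis to cholesterol, 4 had a positive and 6 a negative log2 fold change, with a median of -0.02. TM7SF2, a sterol reductase of the step after lanosterol demethylation, had the largest increase of the 32 genes in this fit. It had 1548 and 1347 reads with vehicle and 1919 and 2426 with LY500307, or 51.7 and 47.4 CPM against 55.3 and 75.1 CPM. The means were 49.5 ± 3.01 and 65.2 ± 14.0 CPM (SD, n = 2 each). Both LY500307 samples were above both vehicle samples, but replicate 1 by little, and the log2 fold change was 0.40 ± 0.15 (SE; edgeR, unadjusted p = 0.034, adjusted p = 0.428). It was 0.16 without LY500307 replicate 2 and 0.60 without replicate 1.

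SC5DL, the sterol C5-desaturase now named SC5D, acts near the end of the pathway and differed in the other direction. It had 7203 and 6677 reads with vehicle and 7355 and 5969 with LY500307, or 240 and 235 CPM against 212 and 185 CPM. The means were 238 ± 3.82 and 198 ± 19.3 CPM (SD, n = 2 each). The log2 fold change was -0.26 ± 0.11 (SE; edgeR, unadjusted p = 0.043, adjusted p = 0.428), and neither LY500307 sample reached the vehicle range. It was -0.16 without LY500307 replicate 2 and -0.36 without replicate 1. DHCR7, the reductase that acts on the product of SC5DL, gave 0.24 ± 0.11 with CPM values of 181 and 177 against 196 and 228. Consecutive enzymes of one branch thus had opposite signs, with exonic GC contents of 37.3% for SC5DL and 56.3% for DHCR7. After GC correction SC5DL gave -0.10 and DHCR7 0.17. Whether this contrast was separate from GC content was not tested.

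The other enzymes of this stretch differed by less. SQLE, the squalene epoxidase, gave a log2 fold change of -0.21 ± 0.12 (SE), and CYP51A1, the lanosterol demethylase, gave -0.21 ± 0.10, each with both LY500307 samples under the vehicle range. NSDHL, of the C4-demethylation complex, gave 0.17 ± 0.11 with the samples separated upwards. The groups overlapped for FDFT1, the squalene synthase (0.07), LSS, the lanosterol synthase (-0.03), HSD17B7 (-0.17) and EBP, a sterol isomerase (-0.02). In the annotation used here, 68.2% of the exonic bases of CYP51A1 and 36.4% of those of EBP also belong to unnamed gene models on the same strand. STARD4, a sterol carrier, had CPM values of 167 and 158 with vehicle and 153 and 176 with LY500307, with LY500307 replicates on either side of the vehicle pair.

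Among the 8 genes of fatty acid synthesis and desaturation the median log2 fold change was 0.05, with 5 positive and 3 negative and none below an unadjusted p of 0.05. FASN, the fatty acid synthase, had CPM values of 808 and 811 with vehicle and 868 and 951 with LY500307, a log2 fold change of 0.17 ± 0.11 (SE). SCD, the stearoyl-CoA desaturase, was the most highly counted of the 32 genes, with CPM values of 1367 and 1404 against 1363 and 1287 and a log2 fold change of -0.06 ± 0.11. ELOVL6, which lengthens palmitate, had CPM values of 235 and 226 against 212 and 173 and gave -0.26 ± 0.12. These were the 3 genes of the group whose samples did not overlap between treatments. Exonic GC content was 65.2% for FASN, 46.5% for SCD and 42.0% for ELOVL6. After GC correction FASN gave 0.03, SCD -0.04 and ELOVL6 -0.18.

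The enzymes that supply and carboxylate acetyl-CoA stayed within 0.1 of 0 on the log2 scale. The log2 fold changes were 0.08 for ACSS2, 0.06 for ACLY and 0.04 for ACACA, with 95% intervals that together spanned -0.20 to 0.32. The desaturases of polyunsaturated fatty acids, FADS1 and FADS2, are neighbours that share 490 exonic bases on opposite strands, and they gave -0.04 and 0.10 with overlapping groups.

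ACSL3 and GPAM use fatty acids rather than make them. ACSL3 joins fatty acids to coenzyme A at the endoplasmic reticulum and lipid droplets and had the largest decrease of the 32 genes in this fit. It had 11904 and 11241 reads with vehicle and 12425 and 8380 with LY500307, or 397 and 396 CPM against 358 and 259 CPM. The means were 396 ± 1.18 and 309 ± 69.8 CPM (SD, n = 2 each). The log2 fold change was -0.36 ± 0.15 (SE; edgeR, unadjusted p = 0.047, adjusted p = 0.428), and it was -0.14 without LY500307 replicate 2 and -0.61 without replicate 1. GPAM, which attaches the first fatty acid to glycerol phosphate, gave -0.08 ± 0.13 with overlapping groups.

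**Figure D2:**
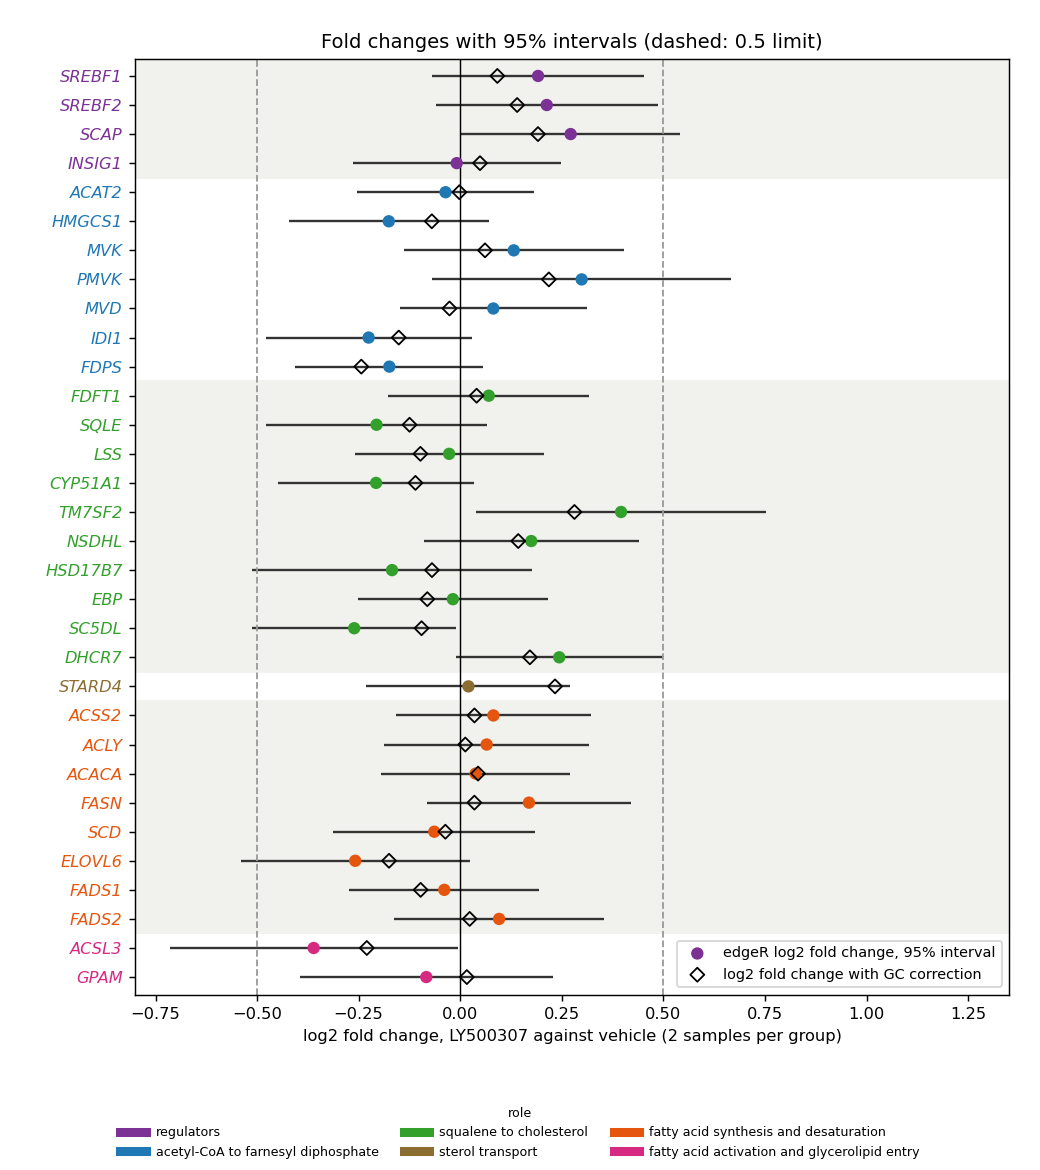
Log2 fold change of LY500307 against vehicle for each gene (filled circles, coloured by role) with its 95% interval (lines), and the same value after correction for exonic GC content (open diamonds). The filled circles lie between -0.36 and 0.40, inside the dashed limits at 0.5, and 25 of the 32 diamonds lie nearer to 0 than their circle.

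Promoter sequences of the members were examined because the group is defined by a shared regulatory system. RefSeq windows on GRCh38.p14, each covering 250 bases before and 50 bases after a transcription start, were found for 28 of the 32 genes (38 windows), with none for ACAT2, FDFT1, SQLE and FASN. The sequences printed are those of SREBF2 and the 4 genes with an unadjusted p below 0.05. Of the 28 genes, only SREBF2 matched the letters searched for as the sterol response element. Capitals mark matches on either strand to the letters TCACNCCAC for the sterol response element, to CACGTG for the E-box, to CCAAT for the box of that name and to GGGCGG for the GC box. The windows are chr22:41832855-41833154 (plus strand) for SREBF2, chr3:47475892-47476191 (minus) for SCAP, chr11:65111622-65111921 (plus) for TM7SF2, chr11:121292521-121292820 (plus, the first of 2 windows) for SC5D and chr2:222860786-222861085 (plus) for ACSL3, and each is written 5′ to 3′ along the gene.
SREBF2: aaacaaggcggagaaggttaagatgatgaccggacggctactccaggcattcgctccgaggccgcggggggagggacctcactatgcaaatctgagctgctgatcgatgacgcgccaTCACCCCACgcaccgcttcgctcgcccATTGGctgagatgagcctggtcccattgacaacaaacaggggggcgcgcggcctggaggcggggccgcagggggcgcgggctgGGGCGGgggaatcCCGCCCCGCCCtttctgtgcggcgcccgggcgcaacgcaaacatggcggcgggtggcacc
SCAP: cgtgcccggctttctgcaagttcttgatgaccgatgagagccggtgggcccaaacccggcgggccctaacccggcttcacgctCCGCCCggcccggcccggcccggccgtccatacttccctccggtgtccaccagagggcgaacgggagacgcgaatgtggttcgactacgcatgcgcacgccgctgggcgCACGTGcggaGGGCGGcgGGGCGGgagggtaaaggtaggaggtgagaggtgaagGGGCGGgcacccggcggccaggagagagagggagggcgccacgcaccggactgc
TM7SF2: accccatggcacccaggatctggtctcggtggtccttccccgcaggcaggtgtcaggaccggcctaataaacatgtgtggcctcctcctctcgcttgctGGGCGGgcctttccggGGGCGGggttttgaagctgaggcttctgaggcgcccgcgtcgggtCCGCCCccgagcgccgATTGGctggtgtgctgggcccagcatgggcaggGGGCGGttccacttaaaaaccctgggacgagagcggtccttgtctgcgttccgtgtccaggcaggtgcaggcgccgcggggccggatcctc
SC5D: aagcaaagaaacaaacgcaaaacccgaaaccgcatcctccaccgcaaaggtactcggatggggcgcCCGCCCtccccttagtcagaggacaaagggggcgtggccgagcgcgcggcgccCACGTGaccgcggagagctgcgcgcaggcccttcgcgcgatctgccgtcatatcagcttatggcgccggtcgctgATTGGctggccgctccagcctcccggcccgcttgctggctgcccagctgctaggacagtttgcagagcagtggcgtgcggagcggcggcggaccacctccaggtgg
ACSL3: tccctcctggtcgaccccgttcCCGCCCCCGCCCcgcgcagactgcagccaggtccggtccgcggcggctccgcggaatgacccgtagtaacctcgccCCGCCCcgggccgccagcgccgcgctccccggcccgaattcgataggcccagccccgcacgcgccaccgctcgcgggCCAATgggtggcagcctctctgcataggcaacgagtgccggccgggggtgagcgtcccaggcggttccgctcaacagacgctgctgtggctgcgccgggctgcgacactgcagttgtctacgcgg

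Positions are those of the first printed base of a match, with the base before the start counted as -1. In the SREBF2 window the sterol response element begins at -133 and is followed by a CCAAT box on the other strand at -106. A CCAAT box also begins at -74 in TM7SF2, at -56 in SC5D and at -75 in ACSL3, and the SCAP window holds none. SCAP and SC5D carry an E-box, at -58 and -131. The 5 windows had a GC content between 67.3% and 74.0%. Whether these motifs relate to the fold changes was not tested.

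Over the 38 member windows, 26 (68.4%) held a CCAAT box and 34 (89.5%) held a GC box, against 34.5% and 64.7% of the 15998 windows of tested genes. An E-box was in 5 (13.2%) against 9.13%, and the sterol response element in 1 (2.63%) against 1.08%. Some members have several overlapping windows, and counted by gene the CCAAT box was in 22 of 28 members (78.6%) against 43.2% of tested genes. By gene the GC box was in 27 (96.4%) against 76.4%. The E-box was then in 4 (14.3%) against 12.4%, close to the share of tested genes, and the sterol response element in 1 (3.57%) against 1.49%. Of all 35116 windows in the table, 34.6% held a CCAAT box, 45.0% a GC box, 7.26% an E-box and 1.13% the sterol response element. A match says only that these letters occur in the window, and a missing match only that these exact letters do not.

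Expression levels spanned a wide range, compared here as CPM per kb of the canonical transcript. The highest vehicle means were 271 for FDPS, 264 for SCD, 212 for FDFT1, 174 for FADS2 and 164 for ACLY. The lowest were 14.0 for HSD17B7, 12.5 for MVK and 4.20 for GPAM, and the regulators SREBF1 (26.4) and SCAP (25.7) stood near the lower end. FDPS and SCD stood close together without overlap in the vehicle samples. Neighbours in the order that did overlap were FASN and IDI1, the run of FADS1, CYP51A1, EBP and ACSL3, the run of STARD4, ELOVL6 and SC5DL, the run of LSS, NSDHL and TM7SF2, PMVK with SREBF1, and HSD17B7 with MVK. The distance from HMGCS1 (137) to SREBF2 (61.8) was larger than the spread in either gene. With LY500307 the mean of FDPS was 240 and that of SCD 253 CPM per kb, so the order of these 2 means was the other way round.

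**Figure D3:**
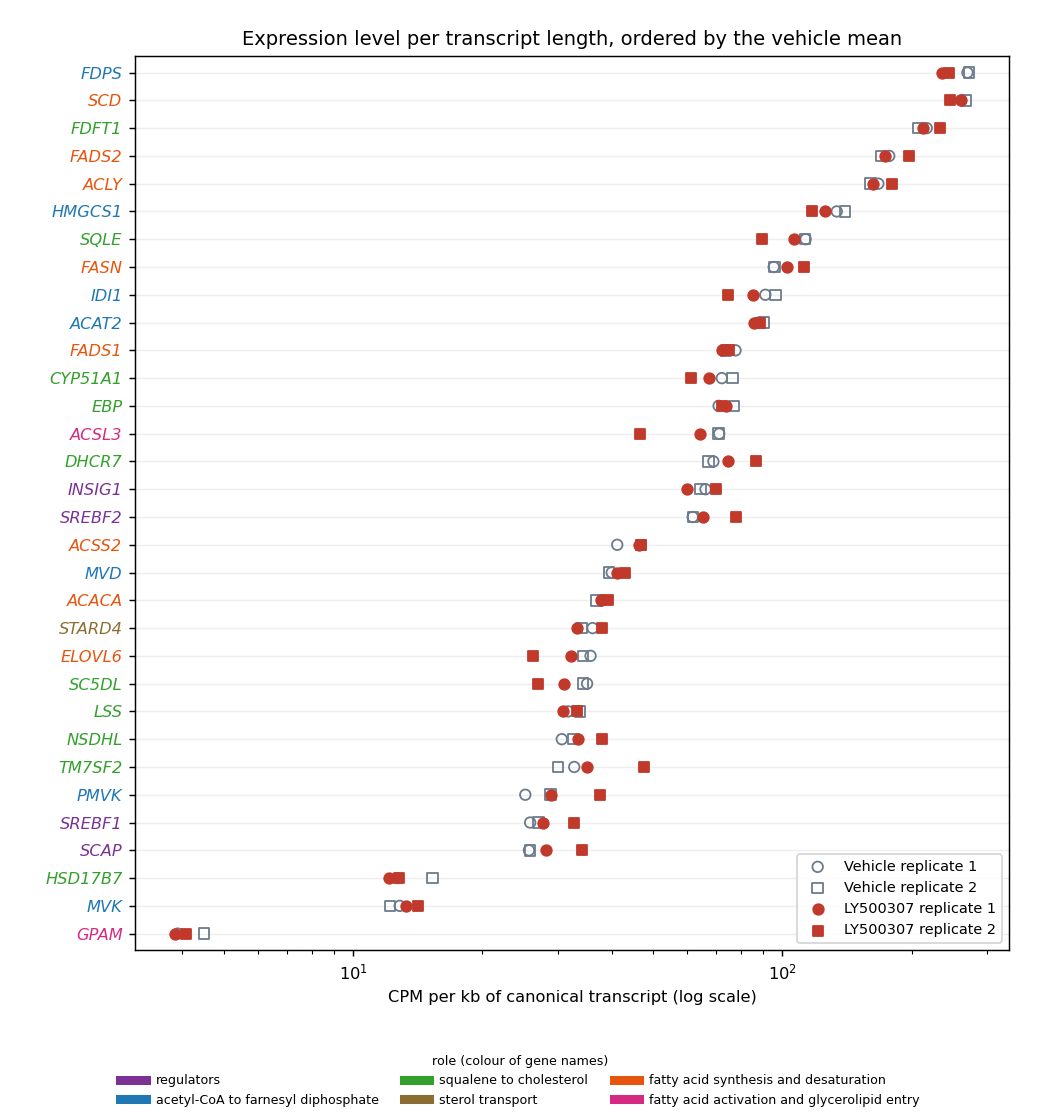
Level of each gene per transcript length in each sample, as CPM per kb on a log axis, ordered by the vehicle mean, with open grey symbols for vehicle, filled red symbols for LY500307 and gene names coloured by role. FDPS and SCD are at the top near 271 and 264, GPAM is alone at 4.20, and the symbols of any 1 gene span only a small part of the axis.

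The 2 LY500307 samples did not place the genes at the same distance from vehicle. Against the vehicle mean, log2 differences ran from -0.20 to 0.16 in replicate 1 and from -0.61 to 0.60 in replicate 2, with median sizes of 0.085 and 0.18. Replicate 2 was the farther one in 25 of the 32 genes (10086 of 14473 over all tested genes). The median gap between the LY500307 replicates was 0.14 on the log2 scale, against 0.063 between the vehicle replicates. Over all tested genes these gaps were larger, at 0.22 and 0.11. The LY500307 gap was the larger in 27 of 32 genes (9638 of 14473 over all tested genes). FDPS was an exception among the genes whose samples separated, with -0.20 in replicate 1 and -0.15 in replicate 2.

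Log2 fold changes of the members tended to be higher where the GC content of the exons was higher, with exceptions such as FDPS (-0.17 at 55.0% GC) and STARD4 (0.02 at 34.6% GC). Across the 32 genes the Spearman correlation of log2 fold change with exonic GC content was 0.80, given as a description across genes, which share libraries and depth. It was 0.77 for LY500307 replicate 1 and 0.76 for replicate 2 against the same vehicle mean, and -0.08 for the difference between the vehicle replicates. Over 13682 tested genes with a GC value it was 0.34, and over 31 other genes of these pathways, described below, it was 0.53. Standard errors reached 0.16 among the members and 1.29 over all tested genes, so the correlations were not compared at matched precision. Of the 16 members with the lowest GC content (34.6% to 50.6%), 12 had a negative log2 fold change, with a median of -0.13. Of the 16 with the highest (51.8% to 65.2%), 12 had a positive one, with a median of 0.11. Among all tested genes in those GC ranges, 39.6% and 65.3% were positive, with medians of -0.06 and 0.10.

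A correction that removed each sample's trend of log2 CPM on exonic GC content brought 25 of the 32 fold changes nearer to 0. The median size went from 0.17 to 0.093, the range narrowed to -0.24 to 0.28, and the correlation with GC content was 0.44 over the members and -0.00 over all genes. SCAP then gave a log2 fold change of 0.19 and TM7SF2 one of 0.28, and SC5DL gave -0.10 and ACSL3 -0.23, none of them below an unadjusted p of 0.05 (edgeR; 0.095, 0.062, 0.355 and 0.134). FDPS, which lies below the middle 50% of tested genes near its GC content, went from -0.17 to -0.24 and was the 1 member with an unadjusted p below 0.05 (edgeR, adjusted p = 0.495). STARD4, which has the lowest GC content of the group at 34.6%, went from 0.02 to 0.23. Whether the relation with GC content came from the libraries or from the cells was not tested.

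**Figure D4:**
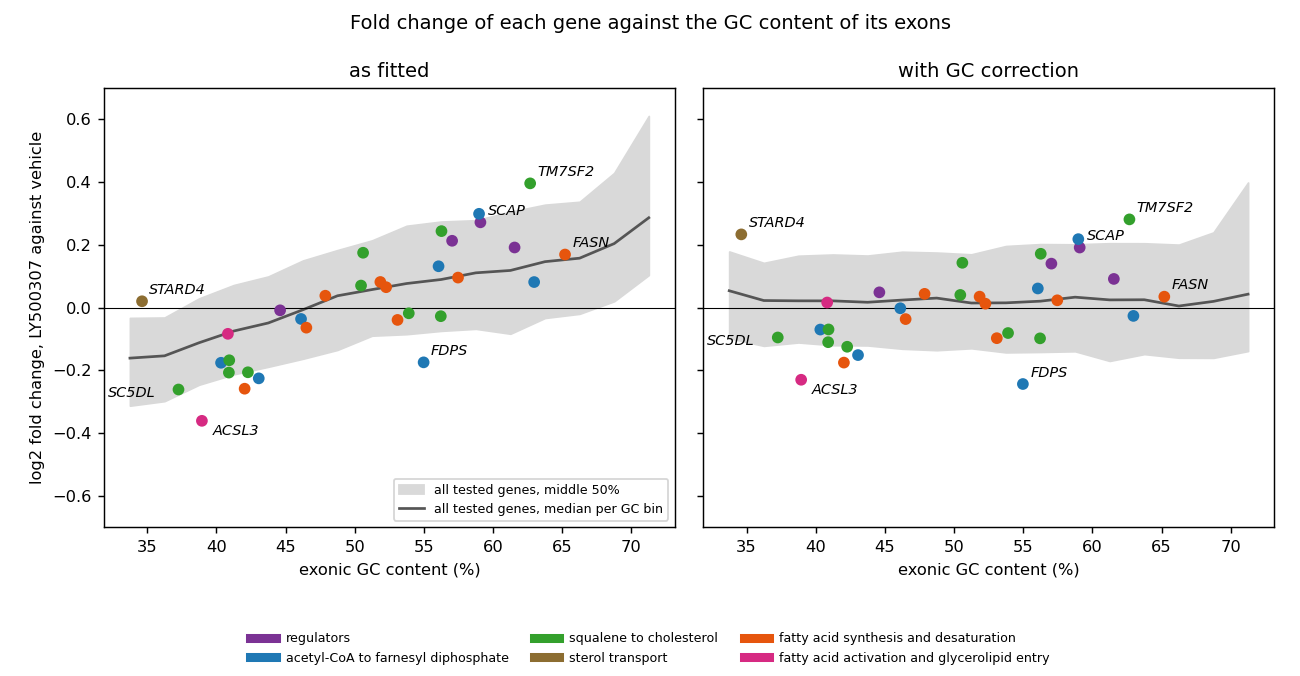
Log2 fold change of LY500307 against vehicle (vertical axes) against the GC content of each gene's exons in percent (horizontal axes), as fitted (left) and after GC correction (right), with the 32 genes coloured by role and all tested genes shown as a median line with a grey band for the middle 50%. On the left TM7SF2 (0.40) is high at high GC content and ACSL3 (-0.36) low at low GC content. Both have the sign of the median line there but lie outside the grey band. On the right both still lie outside the band, and the range of the 32 genes narrows to -0.24 to 0.28.

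Another list of 32 genes around the same pathways was read from the same fit, covering the proteases and anchors of SREBP processing, further sterol enzymes, uptake, and further fatty acid and glycerolipid enzymes. Of these, 31 were tested, with 16 positive and 15 negative log2 fold changes and a median of 0.02. At an unadjusted p below 0.05, 2 were higher and 2 were lower, beside 6.09% and 5.5% of all tested genes, and 1 met the study's criteria as lower, beside 1.86%, so these counts were near the shares over all genes. The gene that met the criteria was INSIG2, the second INSIG anchor, with 1099 and 924 reads with vehicle and 786 and 789 with LY500307. Its CPM values were 36.7 and 32.5 against 22.6 and 24.4, with the LY500307 samples under the vehicle range and close to each other.

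INSIG1 and INSIG2 are set side by side here because they encode related anchors. The log2 fold change of INSIG2 was -0.56 ± 0.13 (SE), with a 95% interval from -0.86 to -0.25, whereas that of INSIG1 reached from -0.26 to 0.25. The difference between the 2 genes was not tested. INSIG2 had an unadjusted p of 0.0029 and an adjusted p of 0.422 in edgeR, and over the 9 fits with all samples its adjusted p ranged from 0.109 (DESeq2) to 0.495. With GC correction its log2 fold change was -0.39 and no longer met the criteria, and without vehicle replicate 1 it was -0.47 and did not meet them either.

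AGPAT2 and ACSL4, also with an unadjusted p below 0.05, differed by less than the 0.5 limit. AGPAT2, which adds the second fatty acid to glycerol phosphate, had CPM values of 24.5 and 26.2 with vehicle and 29.4 and 39.0 with LY500307 (log2 fold change 0.43). Its log2 fold change was 0.27 with GC correction, no longer with an unadjusted p below 0.05, and 0.21 without LY500307 replicate 2. ACSL4, a relative of ACSL3 that prefers polyunsaturated fatty acids, had CPM values of 268 and 270 against 238 and 214 (log2 fold change -0.25). The pair of acyl-CoA synthetases thus had the same sign, with exonic GC contents of 39.0% for ACSL3 and 36.9% for ACSL4, and after GC correction ACSL4 gave -0.08.

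Scaling by library totals alone gave positive values for 21 of the 32 members, with INSIG1, ACAT2, LSS, EBP and FADS1 crossing 0 from values between -0.04 and -0.01, and shifted the median of all genes to 0.04. None of the 32 genes met the study's criteria in any of the 9 fits that kept all samples. TM7SF2 had an unadjusted p below 0.05 in 7 of those 9, SCAP and ACSL3 in 5 each and SC5DL in 4.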

How the data were processed

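RNA was sequenced from 2 vehicle and 2 LY500307 samples of SKOV3-ALDH+ OCSCs. Per the labels, reads were 50-base single ends from a total RNA kit, whereas the study's methods name a stranded mRNA kit. The submitters' processing notes name bcl2fastq, TopHat2 2.0.8b, HTSeq and hg19. The authors deposited raw counts per gene symbol, not normalized. The strand setting of the counting is not given in the sources used here, so genes that overlap on opposite strands are uncertain. The 5 tally lines (reads outside genes, not unique and the like) were left out of all totals. Reads outside genes made up 17.3% to 20.5% and non-unique alignments 32.3% to 33.4% of all tallied.

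The comparison of groups used edgeR 4.0.16 under R 4.3.3 (filterByExpr, TMM, two-sided quasi-likelihood test, Benjamini-Hochberg over all 14473 tested genes). The SE is the absolute log2 fold change divided by the square root of F, and 95% intervals use the t distribution with the fit's degrees of freedom. CPM values use TMM-scaled totals. Alternatives were DESeq2 1.42.0, its size factors, library totals, other filters, a replicate block, GC correction and leaving out each sample. The GC correction fitted log2 CPM (prior count 2) in each sample to exonic GC content by loess (span 0.3), with GC content from GENCODE on GRCh37, to which 94.5% of tested genes were matched. The fit was tested on simulated counts. All members are named, and other pathway genes are named at an unadjusted p below 0.05, apart from 1 that is not reported here. Members and lists were chosen with earlier results of these data known.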

Additional observations from a re-analysis of the deposited data

How the results depend on the processing

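The number of members meeting the study's criteria was 0 in all 9 fits with all samples and 0 to 2 with 1 sample left out. The number of members with an unadjusted p below 0.05 was 4 as reported, 2 with DESeq2, 2 with the replicate block, 1 with GC correction and 0 with the replicate block and GC correction together, and 0 to 20 with 1 sample left out. All tested genes meeting the criteria numbered 669 (400 higher and 269 lower), and 352 to 1987 with 1 sample left out, the highest without LY500307 replicate 1 and the lowest without LY500307 replicate 2. Other pathway genes meeting the criteria numbered 1, but 0 with GC correction, with or without the replicate block, and 0 to 3 with 1 sample left out. The members' median log2 fold change ranged from -0.013 to 0.079 with 1 sample left out. A fit that leaves 1 sample in a group assumes that it varies like the other group.

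The genes whose log2 fold change changed sign lay between -0.08 and 0.08 as reported. With library totals alone, INSIG1 was 0.033, ACAT2 0.0035, LSS 0.013, EBP 0.021 and FADS1 0.00041. With GC correction, INSIG1 was 0.049, MVD -0.027 and GPAM 0.016, and with the replicate block added they were 0.043, -0.027 and 0.018. With 1 sample left out, log2 fold changes ranged from -0.12 to 0.10 for INSIG1, -0.081 to 0.029 for LSS, -0.077 to 0.043 for EBP, -0.079 to 0.12 for STARD4, -0.0079 to 0.18 for ACSS2, -0.0059 to 0.14 for ACLY and -0.18 to 0.021 for GPAM. The causes were not tested.

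Replicate numbers did not pair the samples: same-numbered samples deviated from their group means with a correlation of -0.07, and the replicate block is given for completeness. With 2 samples per group, 1 of them farther from vehicle, the precision is set by the samples rather than by read depth.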
